A study of Mus musculus with 2 samples.

Results

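The 7 genes Col4a1, Col4a2, Lama1, Lamb1, Lamc1, Dab2 and Afp were taken by name and genome window, as genes of the endodermal basement membrane and markers of endoderm, by a rule with no threshold on a measured value. They lie in 6 windows of the mouse genome, each gene with about 25 kb on either side, and Col4a1 and Col4a2 share a window. The windows held 1349 of the 1370254 methylated sites listed in the series, of which 665 of 801745 were CCGG sites. The 7 genes are among 21900 protein-coding genes of the annotation.

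DNA methylation was measured by methylRAD, in which the enzyme FspEI cuts beside methylated cytosines and releases short fragments that are sequenced. A site that is methylated in more cells gives more reads. There were 2 libraries of F9 cells, an established mouse embryonal carcinoma line, 1 from undifferentiated cells and 1 from cells labelled differentiated, which the series text places at day 4. Differentiation was in low-attachment dishes with 1 µM retinoic acid. Neither a genetic change nor another agent is given for either library, and the word untreated in the description of both samples is not explained. With 1 library per state there is no replicate check, and every test below compares these 2 libraries and not the conditions. RNA was not analysed here, so neither the expression of the 7 genes nor the identity of the differentiated cells could be checked.

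Basement membranes are sheets of extracellular matrix built on networks of laminin and type IV collagen. A laminin is a trimer of an alpha, a beta and a gamma chain, and laminin-111 is made of the products of Lama1, Lamb1 and Lamc1. The type IV collagen protomer of most basement membranes joins chains from Col4a1 and Col4a2, which are transcribed in opposite directions from a shared promoter. F9 cells are a classical model of extraembryonic endoderm: with retinoic acid they take on features of primitive endoderm, and aggregates in suspension form an outer layer resembling visceral endoderm. Endoderm derived from F9 cells is known for making laminin and type IV collagen, Dab2 encodes an endocytic adaptor of that tissue, and Afp encodes alpha-fetoprotein, a secreted protein of visceral endoderm and fetal liver.

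Each site was a CCGG, which holds a CpG, or a CCAGG or CCTGG, the same motif read on opposite strands, in which the methylated cytosine is not in a CpG. The tables start at 5 counts per site, so an unlisted site had 0 to 4 counts and cannot be read as unmethylated. For ratios and for the tests it was given 4 counts. This is a level of 0.240 counts per 1000000 CCGG counts for undifferentiated and 0.255 for differentiated cells. The CCGG totals were 16687588 counts for undifferentiated and 15705436 for differentiated cells, and paired values below are in that order. Levels below are counts per 1000000 CCGG counts, and intervals are exact 95% binomial intervals that cover counting error only, since PCR copies of a fragment are counted along with it.

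The promoters are shown first, because summed CCGG levels were lowest within 2 kb of the gene starts. The RefSeq promoter table (GRCm38.p6) gives 300 bases at each start, from 250 before it to 50 after it, for 5 of the 7 genes. Upstream sequence is printed for Afp and for both starts of Dab2. At the CpG-rich starts of the collagen genes and of Lamb1, 30 bases are printed around single CCGG sites. Capitals mark CCGG, and in the 30-base stretches only the site named. The strand is that of the gene.
Afp, chr5:90490464-90490713, plus strand: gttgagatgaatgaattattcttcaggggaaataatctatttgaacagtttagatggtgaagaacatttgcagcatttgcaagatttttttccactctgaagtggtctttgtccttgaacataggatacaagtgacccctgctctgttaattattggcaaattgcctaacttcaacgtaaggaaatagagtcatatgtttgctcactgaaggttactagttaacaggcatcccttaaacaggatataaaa
Dab2 first start, chr15:6299539-6299788, plus strand: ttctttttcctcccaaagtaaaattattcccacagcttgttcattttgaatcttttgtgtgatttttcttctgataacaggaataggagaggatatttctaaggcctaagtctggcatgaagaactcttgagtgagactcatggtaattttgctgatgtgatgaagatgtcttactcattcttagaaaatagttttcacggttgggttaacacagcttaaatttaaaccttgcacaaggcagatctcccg
Dab2 second start, chr15:6386498-6386747, plus strand: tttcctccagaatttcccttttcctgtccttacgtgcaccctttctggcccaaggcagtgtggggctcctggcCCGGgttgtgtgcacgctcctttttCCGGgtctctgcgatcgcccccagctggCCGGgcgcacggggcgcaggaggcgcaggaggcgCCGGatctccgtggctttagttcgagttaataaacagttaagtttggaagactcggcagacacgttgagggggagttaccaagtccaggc
Col4a1 site 11313036, chr8:11313023-11313052, minus strand: accggcggccaggCCGGcctggctctgctc
Col4a1 site 11313011, chr8:11312998-11313027, minus strand: tgctccgtgggcgCCGGactctcggccccg
Col4a1 site 11312904, chr8:11312891-11312920, minus strand: ggagcgcagagccCCGGcgttcggactccc
Col4a2 site 11312721, chr8:11312708-11312737, plus strand: cctgctcaccgtcCCGGgtgcggtgactct
Lamb1 site 31265303, chr12:31265290-31265319, plus strand: tcccttctttgggCCGGtgggctgccagga

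These windows fell into CpG-rich and CpG-poor ones. The 300 bases at the starts of Col4a1 and Col4a2 held 37 and 33 CpG, with 6 and 4 CCGG. The second start of Dab2 held 19 CpG and 4 CCGG, and Lamb1 held 18 CpG and 1 CCGG. The first start of Dab2 held 2 CpG and Afp 3, and no CCGG was among their letters. Of all 32851 promoter windows of the table, 52.8% held a CCGG and 70.6% a CCAGG or CCTGG, both read on both strands. Together the member windows held 15 distinct CCGG, and 2 of these were listed in either library. Over all promoter windows 14.4% of 39736 CCGG positions were listed, so the share in the members lay near the background.

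Both listed CCGG belonged to the shared collagen promoter, and both were listed in the differentiated library alone. The site at position 11313036 of chromosome 8, 210 bp upstream of the Col4a1 start, had 10 counts there and was unlisted in the undifferentiated library. In the printed 30 bases its CCGG directly follows a CCAGG and is directly followed by a CCTGG, with no base shared. The tables list these at 11313040 with 10 counts and at 11313031 with 8 counts, again in the differentiated library alone, and sites this close can be covered by the same reads. Position 11313011 had 5 counts, the listing minimum. By Fisher's exact test site 11313036 did not pass the threshold (adjusted p = 0.246), and site 11313011 had too few counts to be tested. The test set 4 against 10 counts, so its result depends on the count given to the unlisted site. The 8 other CCGG of the collagen promoter windows, the 4 at the second start of Dab2 and the 1 of Lamb1 were unlisted in both libraries. Over all promoter windows 10.3% of CCGG were listed for undifferentiated and 11.7% for differentiated cells.

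Within 2 kb of the 8 starts, 15 CCGG sites were listed, of which 7 were in the undifferentiated library, 13 in the differentiated one and 5 in both. Their counts ran from 5 to 16 before and from 5 to 20 after differentiation. With unlisted sites at 4 counts the summed level was 5.81 and 6.88, a log2 ratio of 0.24 (95% interval -0.17 to 0.65). This interval includes 0, and the ratio was 0.71 with unlisted sites at 0 counts and 0.02 without the site with the highest count. Within 1 kb of a start it was 0.51 (0.01 to 1.03), and 0.42 (-0.14 to 0.99) there without the collagen window. The other scalings described below, which shift log2 ratios by -0.16 and -0.23, also bring the lower limit of the first under 0. Around Lama1 no CCGG was listed within 2 kb in either library. Its nearest listed sites lay 4212 bp upstream and 2873 bp downstream of the start, a gap of 7085 bp. The gap around the shared collagen start ran from position 11309356 to 11313011, 3655 bp, and 3470 bp of it lay inside Col4a1. Lamc1 had 2 sites within 2 kb, 342 and 397 bp inside the gene, each with 6 counts in the differentiated library and unlisted in the other. Over 21263 starts of protein-coding genes the median was 1 listed CCGG site within 2 kb (interquartile range 0 to 3), and 31.9% had none.

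The 1 promoter site that passed the test was at the first, CpG-poor start of Dab2. Position 6300217 of chromosome 15, 428 bp downstream of that start, had 5 counts before and 20 after differentiation, a 4.25-fold difference (Fisher's exact test, adjusted p = 0.0134). It was 1 called of 13 tested promoter CCGG sites, 7.69%, against 23.5% of all CCGG sites tested in the genome. Near the Afp start, position 90491656, 942 bp into the gene, had 13 and 5 counts. Position 90491102, 388 bp into the gene, had 7 counts in the undifferentiated library and was unlisted in the differentiated library. Position 90492678, 1964 bp into the gene, had 6 counts after differentiation and was otherwise unlisted. Near Lamb1 the site 1068 bp into the gene fell short of the threshold with 16 and 5 counts (adjusted p = 0.0934, Fisher's exact test).

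**Figure D1:**
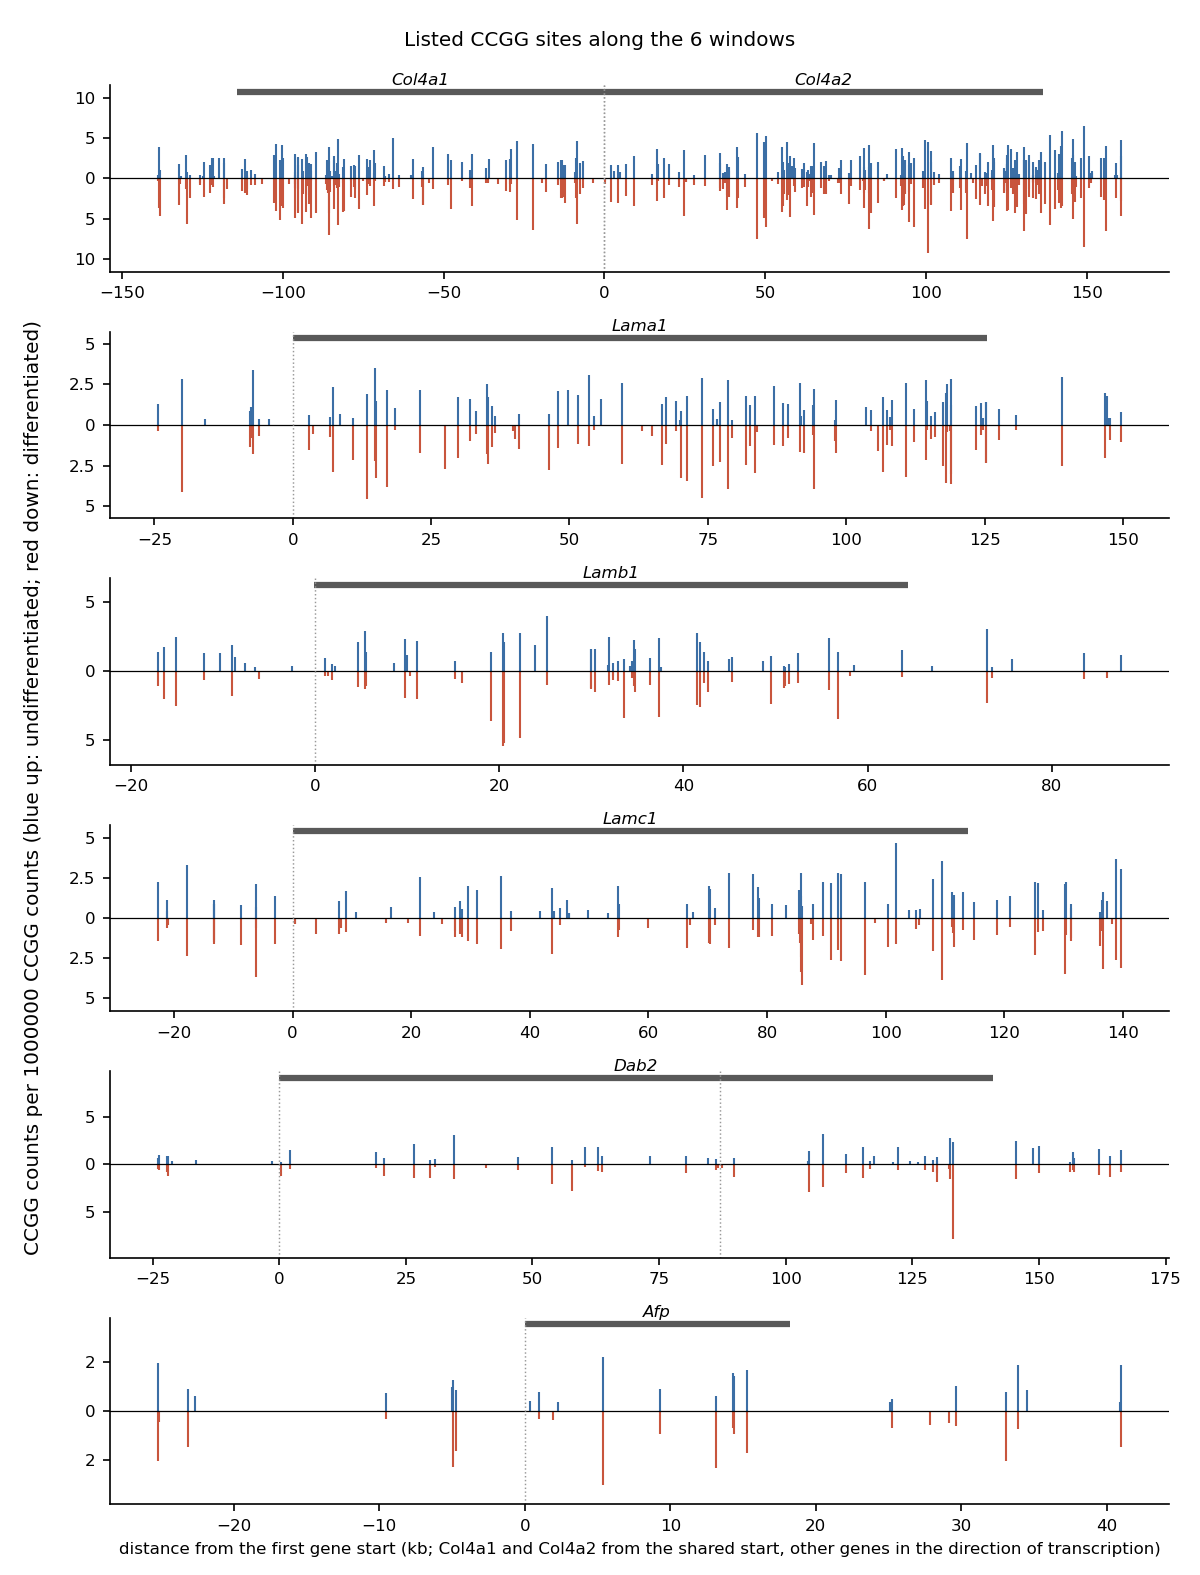
Level of each listed CCGG site (counts per 1000000 CCGG counts) against distance from the gene start in kb for the 6 windows, with the undifferentiated library drawn upward in blue and the differentiated library downward in red. Grey bars are the genes and dotted lines the starts. The gap without a listed site around a start is longest at Lama1, 7085 bp, and shortest at the second start of Dab2, 819 bp, and the collagen window holds 308 of the 665 sites.

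Summed levels were lowest within 2 kb of the starts. Listed CCGG sites per 10 kb were 7.14 within 1 kb of a start and 3.57 from 1 to 2 kb, and between 3.62 and 8.58 in the bins farther out. Within 1 kb of a start the summed CCGG level per kb was 0.248 (undifferentiated) and 0.354 (differentiated), and from 1 to 2 kb it was 0.167 and 0.136. From 2 to 5 kb it was 0.412 and 0.481, from 5 to 10 kb 0.706 and 0.682, and from 10 to 25 kb 0.516 and 0.573. From 25 to 50 kb it was 0.786 and 0.776, and beyond 50 kb 1.38 and 1.57. The last step came mostly from the collagen genes: without their window the levels beyond 50 kb were 0.776 and 0.797. Without it the values were 0.25 and 0.334 within 1 kb, and 0.646 and 0.661 from 25 to 50 kb. These values depend on how many CCGG the sequence holds as well as on methylation, and the genome sequence outside the promoter windows was not used here. The bins within 2 kb of a start held 10 and 5 sites.

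**Figure D2:**
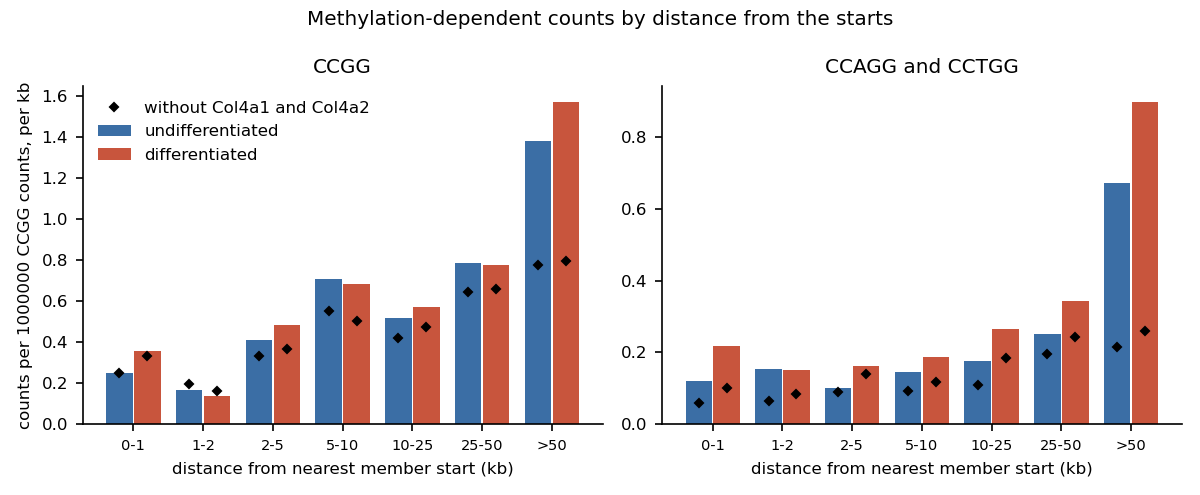
Summed counts per 1000000 CCGG counts and per kb in bins of distance from the nearest start of the 7 genes, for CCGG sites on the left and for CCAGG and CCTGG sites on the right. Bars are all 6 windows and black diamonds leave out Col4a1 and Col4a2. CCGG levels beyond 50 kb were 1.38 and 1.57 per kb, against 0.248 and 0.354 within 1 kb.

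Type IV collagen and the laminin alpha chain had slightly higher gene-body CCGG levels after differentiation relative to the CCGG totals, a direction that turned for the collagen genes under the RPM divisors described below. For the beta and gamma chains of the same laminin the intervals included 0. Over the body of Col4a1 (chromosome 8, 11198423 to 11312889), 110 CCGG sites outside the promoter held 2999 and 3334 counts, a log2 ratio of 0.22 (95% interval 0.15 to 0.29). For Col4a2 (chromosome 8, 11312805 to 11449287), 147 sites held 4448 and 4872 counts, a log2 ratio of 0.21 (0.15 to 0.27). Lama1 (chromosome 17, 67697127 to 67822645) had 86 sites with 1814 and 2087 counts, a log2 ratio of 0.28 (0.19 to 0.37). These 3 intervals lie above 0 with the CCGG totals. Lamb1 (chromosome 12, 31265146 to 31329644) had 50 sites with 1117 and 1043 counts, a log2 ratio of 0.02 (-0.10 to 0.14). Lamc1 (chromosome 1, 153218922 to 153332786) had 68 sites with 1324 and 1180 counts, a log2 ratio of -0.06 (-0.18 to 0.05).

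The endoderm markers had fewer sites and wider intervals. Dab2 (chromosome 15, 6299788 to 6440715) is the longest of the 7 genes at 140.9 kb and had 36 gene-body sites, with 666 and 623 counts and a log2 ratio of 0.04 (-0.12 to 0.20). Afp (chromosome 5, 90490714 to 90508907), the shortest of the 7 genes at 18.2 kb, had 7 sites with 146 and 153 counts and a log2 ratio of 0.19 (-0.14 to 0.53). A listed CCGG site was also lower in these windows than at the collagen genes. Its median count in the undifferentiated library was 31 in the collagen window, 22 at Lama1 and Lamb1, 19 at Lamc1, and 14.5 at both Dab2 and Afp, against 19 in the genome. Listed CCGG sites per 10 kb were 10.2 in the collagen window, 5.8 at Lama1, 6.17 at Lamb1, 6.06 at Lamc1, 2.92 at Dab2 and 4.06 at Afp.

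The same comparison was made for every protein-coding gene with 50 or more summed CCGG counts, over all sites between the limits of the gene, so that sites upstream of it were left out. Fisher's exact test with Benjamini-Hochberg adjustment over 16678 genes called 38.1% of them, 25.5% with more and 12.5% with fewer counts after differentiation. Of the 7 members 3 were called higher and 0 lower. By this exact test the adjusted p was 3.66e-08 for Col4a1, 4.54e-11 for Col4a2 and 5.21e-08 for Lama1. Their log2 ratios were 0.22, 0.21 and 0.28, against a median of 0.07 over all genes tested. Like the intervals, these p-values cover counting error only. At an unadjusted p under 0.05 the count of lower members was also 0. The directions rest on the CCGG totals. Scaling by the median ratio of well-covered sites shifts every log2 ratio by -0.16 and the authors' RPM divisors shift it by -0.23. With the first of these, 10.6% of all genes were called higher and 26.7% lower, and with the second 7.24% and 36.7%. Under median-ratio scaling Lama1 alone stayed higher (log2 ratio 0.12, adjusted p = 0.0264 by the same exact test), and Lamb1 (-0.14, 0.0497) and Lamc1 (-0.21, 0.000951) were called lower. Under the RPM divisors Col4a1 and Col4a2 had log2 ratios of -0.01 each, Lama1 had 0.05, and Lamb1 (-0.21) and Lamc1 (-0.28) were called lower. A scaling shifts all members alike, so Lama1 and the collagen genes lay above Lamb1 and Lamc1 throughout, and the difference between the members was not tested.

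Over whole windows, flanks included, the CCGG log2 ratio was 0.20 for the collagen genes (95% interval 0.16 to 0.24), 0.22 for Lama1 (0.13 to 0.30) and 0.01 for Lamc1 (-0.08 to 0.10). It was -0.08 for Lamb1 (-0.19 to 0.02), -0.06 for Dab2 (-0.20 to 0.07) and 0.08 for Afp (-0.12 to 0.27). Over 25214 windows of 100 kb in the genome the median was 0.04, with an interquartile range of -0.13 to 0.20. The flanks of Lamb1 and Dab2 were lower in the differentiated library, from 330 to 196 counts (log2 ratio -0.48, -0.73 to -0.23) and from 278 to 174 counts (-0.49, -0.77 to -0.22). The Lamb1 flank holds Dld, which encodes dihydrolipoamide dehydrogenase, and the Dab2 flank holds part of C9, a complement component. A single site decided the Dab2 value: without position 6432741, described below, the window had a log2 ratio of -0.22.

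**Figure D3:**
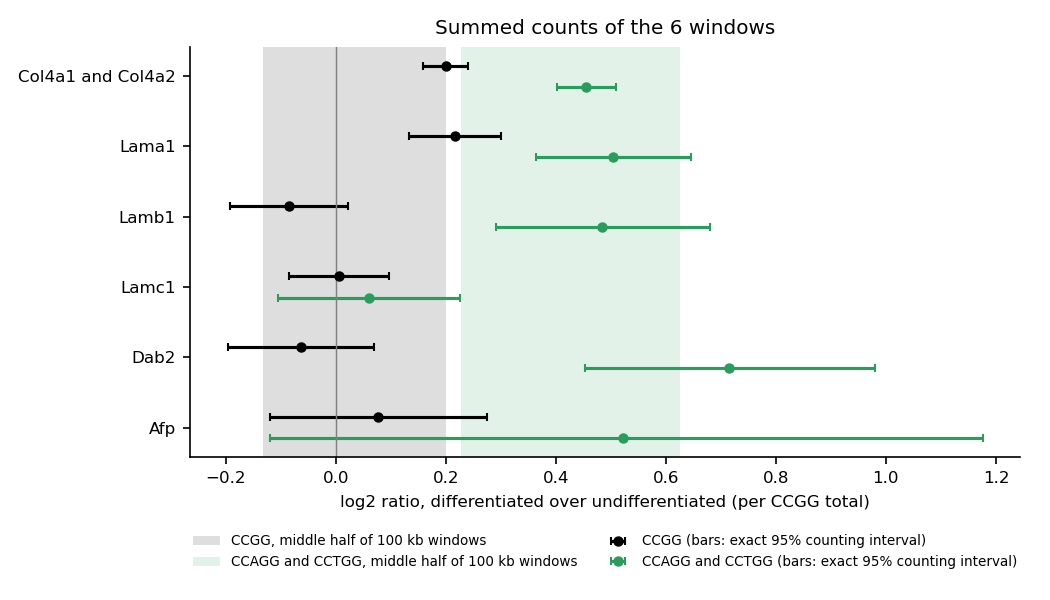
Log2 ratio of summed counts, differentiated over undifferentiated library, for each window, with CCGG in black and CCAGG and CCTGG in green. Bars are exact 95% counting intervals and the shaded bands are the interquartile ranges of 100 kb windows of the genome. CCGG ratios of the collagen genes and Lama1 lie at the upper edge of the grey band, and the green value of Lamc1, 0.06, lies below the green band.

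Single CCGG sites were tested over the whole table, where 23.5% of 763323 sites were called, 11.6% as higher and 11.9% as lower after differentiation. In the 6 windows 638 sites were tested and 83 were called higher and 65 lower, 23.2% in all, a share near the background. Of the calls 56.1% were higher, against 39.4% under median-ratio scaling and 33.6% under the RPM divisors. Over the genome these shares were 49.3%, 35.9% and 31.0%. By window the called share was 25.8% for the collagen genes (47 higher, 30 lower), 23.2% for Lama1 (13 and 10) and 27.7% for Lamb1 (8 and 10). It was 14.9% for Lamc1 (7 and 7), 24.1% for Dab2 (6 and 7) and 10.7% for Afp (2 and 1). By size alone, 33.5% of the tested sites differed 2-fold or more, 108 upward and 106 downward. The share over all sites was 40.6%, 18.9% upward and 21.7% downward. Among the 503 sites of the windows listed in both libraries Pearson's r of the log2 counts was 0.58 and Spearman's rank correlation 0.59. These are across sites, which share their libraries and are not replicates, and the same values over the genome were 0.53 and 0.53.

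**Figure D4:**
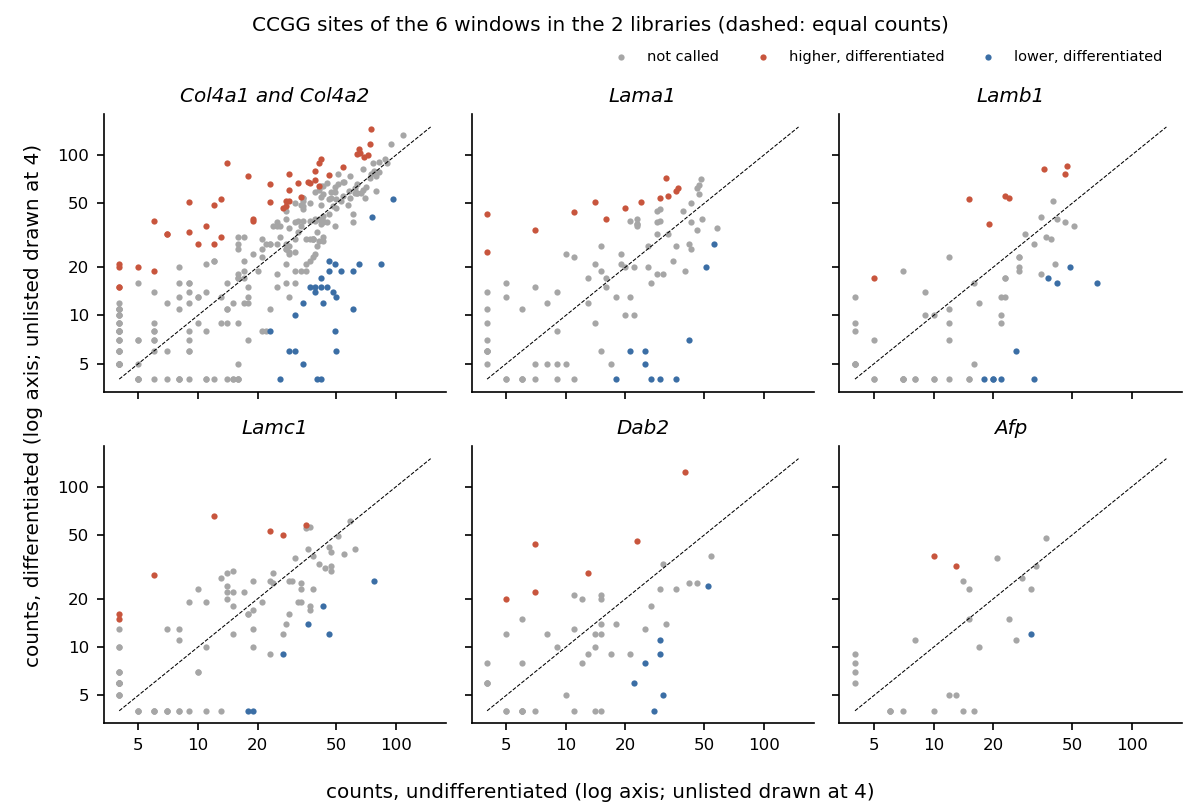
Counts of each CCGG site in the undifferentiated (x) and differentiated (y) library on log axes, by window, with unlisted sites drawn at 4 counts. Red and blue points passed Fisher's exact test at an adjusted p under 0.05 as higher or lower in the differentiated library, 83 and 65 in all, and lie on both sides of the line of equal counts in each window.

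In the collagen window the site with the highest count lay beyond the end of Col4a2, in Rab20, which encodes a small GTPase. Position 11462132 had 109 and 133 counts and did not pass the test (adjusted p = 0.134, Fisher's exact test). The next, position 11413557, 101 kb into Col4a2, had 75 and 145 counts, 2.05-fold more after differentiation (adjusted p = 1.36e-05, Fisher's exact test). The largest rises were beyond the end of Col4a1, less than 1 kb apart. Position 11183887 had 6 and 39 counts, a 6.91-fold difference, and position 11182941 had 14 and 89 counts, 6.75-fold (adjusted p = 7.75e-06 and 3.49e-12, Fisher's exact test). The largest falls were to unlisted. Position 11192903, in the long noncoding RNA gene Gm15418 beyond the end of Col4a1, had 42 counts in the undifferentiated library and was at least 9.88-fold lower in the other. Position 11276969, 35.9 kb into Col4a1 and also inside the noncoding gene Gm32709, had 40 counts and was at least 9.41-fold lower.

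Along Lama1 the highest sites did not pass the test. Position 67770993, 73.9 kb into the gene, had 48 and 71 counts. Among the settings tried it was called only with unlisted sites at 0 or with a summed count of at least 20. Position 67677111, 20.0 kb upstream, had 47 and 65. The largest changes were sites listed in 1 library. Position 67724619, 27.5 kb into the gene, was unlisted in the undifferentiated library and had 43 counts in the differentiated library, at least 11.4-fold more (adjusted p = 1.14e-07, Fisher's exact test). Position 67802957, 106 kb into the gene, was likewise unlisted and had 25 counts, at least 6.64-fold more. In the other direction, position 67746821, 49.7 kb into the gene, went from 36 counts to unlisted, at least 8.47-fold lower. Position 67844223, beyond the gene's end in the gene Arhgap28, went from 30 counts to unlisted, at least 7.06-fold lower. Rises and falls thus lay within the same gene body.

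In Lamb1 the 2 highest sites were both called higher. Position 31285724, 20.4 kb into the gene, had 47 and 85 counts (1.92-fold, adjusted p = 0.00337, Fisher's exact test). Position 31287582, 22.3 kb into the gene, had 46 and 76 counts (1.76-fold, adjusted p = 0.0166 by the same exact test), a call that was lost under both other scalings. The largest rise was at position 31298881, from 15 to 53 counts or 3.75-fold, and the next at position 31316294, from 5 to 17 counts or 3.61-fold, which was not called under the other scalings either. Position 31289215, 23.9 kb into the gene, fell from 32 counts to unlisted, at least 7.53-fold. Position 31255033, 10.3 kb upstream of the start, fell from 22 counts to unlisted, at least 5.18-fold.

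Lamc1 had its highest sites near the 3' end. Position 153223346, 109 kb into the gene, had 59 and 61 counts and did not pass the test. This site and position 153196723, named below, had no full-match alignments in either library. Both drop out where only such alignments are kept. Position 153231127, 102 kb into the gene, had 78 and 26 counts, 2.82-fold fewer in the differentiated library (adjusted p = 4.38e-05, Fisher's exact test). The largest rise was at position 153246937, 85.8 kb into the gene, from 12 to 66 counts or 5.84-fold (adjusted p = 2.46e-08, Fisher's exact test), followed by position 153196723 beyond the gene's end, from 6 to 28 counts. The largest falls were from 19 counts to unlisted at position 153286443 and from 18 counts to unlisted at position 153195497, at least 4.47-fold and 4.24-fold.

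In Dab2 a single site stood out in the differentiated library. Position 6432741, 133 kb from the first start and 46.0 kb from the second, had 40 and 124 counts, 3.29-fold more (adjusted p = 1.61e-09, Fisher's exact test). The next highest, position 6407063, had 54 and 37 counts and did not pass. The largest rise was at position 6357619, between the starts, from 7 to 44 counts or 6.68-fold, and the second largest was the promoter site at 6300217 given above. Position 6360129, also between the starts, fell from 31 to 5 counts or 5.84-fold. Position 6448568, in C9 beyond the gene's end, fell from 28 counts to unlisted, at least 6.59-fold.

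Afp lies between the related genes Alb, which encodes albumin, and Afm, which encodes afamin. Its highest site, position 90496090, 5.38 kb into the gene, had 37 and 48 counts, and position 90465528 in Alb had 33 and 32 counts. Neither passed the test. Position 90503841, 13.1 kb into Afp, rose from 10 to 37 counts, 3.93-fold (adjusted p = 0.000522, Fisher's exact test). The other 2 called sites of this window lay less than 1 kb apart in Afm and went opposite ways. Position 90523810 had 13 and 32 counts, 2.62-fold more in the differentiated library, and was not called under the RPM divisors. Position 90524629 had 31 and 12 counts, 2.43-fold fewer.

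At CCAGG and CCTGG sites the differentiated library had more counts in 4 windows, with intervals above 0, as it did over the genome. For the collagen genes the counts were 4330 and 6142, a log2 ratio of 0.46 (95% interval 0.40 to 0.51). Lama1 had 584 and 900 counts (0.50, 0.36 to 0.65), Lamb1 289 and 471 (0.48, 0.29 to 0.68) and Dab2 106 and 290 (0.72, 0.45 to 0.98). Afp had 13 and 42 counts, a log2 ratio of 0.52 with an interval of -0.12 to 1.18. With unlisted sites at 0 counts the log2 ratio was 1.54 for Dab2 and 1.78 for Afp. Lamc1 had 533 and 522 counts, a log2 ratio of 0.06 (-0.10 to 0.23), which was -0.08 relative to the counts of all 3 motifs. The genome had a log2 ratio of 0.40, and 100 kb windows had a median of 0.42 with an interquartile range of 0.23 to 0.63, so the Lamc1 value lay below that range. For its gene body alone it was -0.04 (-0.23 to 0.15). At its non-CpG sites more than 100 bp from a listed CCGG it was 0.27 (-0.02 to 0.56), from 138 and 184 counts.

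The collagen window was also the one richest in these motifs. Of its 764 listed sites 456 were CCAGG or CCTGG, 59.7%, against 41.5% of all sites of the genome. They held 32.2% of the window's counts before differentiation (95% Wilson interval 31.5% to 33.0%) and 38.3% after it (37.6% to 39.1%). The 95th percentiles over 100 kb windows were 29.9% and 39.6%. At the other end, Afp had 8 such sites, with 3.05% (1.79% to 5.15%) and 9.55% (7.14% to 12.7%) of the counts. Dab2 had 9.91% (8.26% to 11.8%) and 25.7% (23.2% to 28.3%), and Lamc1 21.1% and 21.7%. Reads are shared with a CCGG where sites lie within 16 bp, which held for 72 of the 456 collagen sites. These 72 sites held 1917 of the 4330 counts before and 2540 of the 6142 counts after differentiation. The collagen shares of counts given above include them. The 254 collagen sites more than 100 bp from a CCGG had 1310 and 2399 counts, a log2 ratio of 0.60 (0.51 to 0.69), against 0.51 over such sites of the genome.

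Few single non-CpG sites were called. Over the genome 7.31% of 454331 tested CCAGG and CCTGG sites passed Fisher's exact test, 6.03% as higher and 1.28% as lower after differentiation. In the windows 46 of 588 were called higher and 9 lower, 9.35% in all. By size alone, 184 were 2-fold or more higher and 63 lower, 42.0%, against 39.5% of all such sites (30.1% higher and 9.41% lower). Of the 46 called higher, 25 lay in the body of Col4a2 and 8 in that of Lama1. The highest collagen site, the CCTGG at position 11425483, 113 kb into Col4a2, had 74 and 118 counts, 1.69-fold more (adjusted p = 0.0109, Fisher's exact test). It lies 9 bp from the CCGG at position 11425492, which had the same counts. In Lamb1 the CCAGG at position 31285785 had 36 and 81 counts, 2.39-fold more (adjusted p = 0.000597, Fisher's exact test). It lies 8 bp from the CCGG at position 31285777, which had 36 and 82 counts. Both calls can therefore rest on reads shared with a CCGG. The highest sites of the other windows did not pass: position 67734818 in Lama1 had 71 and 55 counts, position 153240352 in Lamc1 46 and 42, and position 6353710 in Dab2 31 and 33. In Afp position 90494442 was unlisted in the undifferentiated library and had 11 counts in the other. Of these, the Lama1 site lay 1196 bp and the Afp site 1462 bp from a listed CCGG. The Lamc1 site lay 9 bp and the Dab2 site 12 bp from one, within the distance at which reads are shared.

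Other genes of the same tissues were counted with the gene test given above, from lists drawn up by name. Of 16 other basement membrane genes, 4 were higher and 2 lower after differentiation, against 25.5% and 12.5% of all genes. The list's median log2 ratio was 0.12, against 0.07 over all genes tested. Agrn, which encodes the proteoglycan agrin, had a log2 ratio of 0.48, and Lama5, a laminin alpha chain, also had 0.48. Col18a1, type XVIII collagen, had 0.40 and Hspg2, which encodes perlecan, had 0.24. The 2 lower genes encode laminin receptor subunits, the integrins Itga6 (-0.30) and Itgb1 (-0.35). Agrn, Lama5 and Col18a1 were called higher and Itga6 and Itgb1 lower under both other scalings, and Hspg2 was not called there. The other type IV collagen genes, Col4a3 to Col4a6, lay between -0.16 and 0.16 and were not called, though under other scalings Col4a5 was called lower under both and Col4a4 under the RPM divisors. With unlisted sites at 0 counts Col4a3 was called higher and Col4a5 lower.

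Of 16 endoderm differentiation markers, 4 were higher and 2 lower, against 25.5% and 12.5% of all genes, shares near the background. The list median was -0.02, against 0.07 over all genes tested. The higher genes were Thbd, encoding thrombomodulin (0.99), Krt19, a keratin (0.84), Ttr, encoding transthyretin (0.46), and Cubn, encoding the endocytic receptor cubilin (0.21). The lower genes were Krt8 (-0.69), a keratin, and Hnf4a (-0.18), a transcription factor of visceral endoderm. Thbd and Krt19 stayed higher, and Krt8 and Hnf4a lower, under both other scalings, and Ttr and Cubn were not called there. Ttr had 5 listed CCGG sites, Thbd and Krt8 had 7 each and Krt19 had 9, so these sums rest on few sites.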

How the data were processed

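Per the labels' protocols, F9 DNA was cut with FspEI and short fragments were taken from a gel and ligated to adaptors. FastQC 0.11.3, Bowtie2 2.3.3 and GRCm38 are named in the submitters' processing notes. Read filters and the listing minimum are not given in the sources used here. The authors deposited whole-number counts per site for 2 libraries, 20550450 counts over 1016209 sites (undifferentiated) and 21291239 over 1108689 (differentiated). The deposited column headed RPM was treated as a score, because it sums to 9249232.2 and 8703649.0. It equals the count times 1000000 over 2221855 and 2446243, which served as an alternative scaling.

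Gene limits and starts came from RefSeq tables of GRCm38.p6. Of 5806 listed CCGG sites inside promoter windows, 98.3% lay at a CCGG of the reference letters. For Lama1 and Lamc1, which the promoter table does not hold, the start was the gene limit at the 5' end, with the strand taken from general knowledge of these genes. Promoters were within 2 kb of a start. Exon and intron limits were not used here. Positions with differing motifs (50 in the genome, 0 in the windows) were left out.

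A two-sided Fisher's exact test set each site with 10 or more summed counts against all other CCGG counts in both libraries, with Benjamini-Hochberg adjustment over all sites and a threshold of 0.05. CCAGG and CCTGG sites were tested as a separate family, and genes with a summed count of at least 50 likewise. Unless stated otherwise, an unlisted site entered these tests and their summed counts as 4 counts. The gene and non-CpG tests were added after seeing the data. The site test and the intervals were run on simulated data, which cannot replace a check against replicate libraries.

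The members and lists were chosen with earlier results of these data known. Named per window were the 2 CCGG sites with the highest summed count, the 2 largest rises and 2 largest falls among called sites, the highest CCAGG or CCTGG site, and sites within 2 kb of a start. Alternatives concerned scaling, unlisted sites, alignment type, sites in both libraries, promoter width, flanks, highest sites, summed count, fold and shared reads. The scripts ran in Python 3.11.15 with pandas 2.3.3, scipy 1.17.1, numpy 2.4.6 and matplotlib 3.10.9.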

Additional observations from a re-analysis of the deposited data

How the results depend on the processing

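Depth limits the promoters, where the listed CCGG sites had 5 to 20 counts against a minimum of 5, and Afp had few sites. With 1 library per state, neither leaving out a replicate nor a model of the spread between replicates was possible. No paired analysis was possible because each state has 1 library. Alternatives without the collagen window, without the highest promoter site and for the member genes were chosen after seeing the data.

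CCGG log2 ratios by window depended on the scaling. Under median-ratio scaling they were 0.044 for the collagen genes, 0.061 for Lama1, -0.24 for Lamb1, -0.15 for Lamc1, -0.22 for Dab2 and -0.079 for Afp. Under the RPM divisors they were -0.026, -0.0095, -0.31, -0.22 and -0.29, and -0.15 for Afp. The windows of Lamc1 and Afp turned sign under both scalings, and those of the collagen genes and Lama1 under the RPM divisors. Under the RPM divisors so did the gene bodies of Col4a1 (-0.006), Col4a2 (-0.0135), Lamb1 (-0.20), Dab2 (-0.19) and Afp (-0.034), of which Lamb1 (-0.13) and Dab2 (-0.12) also did under median-ratio scaling. With unlisted sites at 0 counts the gene bodies of Lamb1 (-0.011) and Dab2 (-0.009) also turned sign. The window of Lamb1 was 0.046 with sites listed in both libraries. The window of Dab2 was -0.22 without its highest site and 0.081 without flanks. The gene bodies together, 0.17, had 0.0155 under median-ratio scaling, -0.055 under the RPM divisors and 0.10 without the collagen window. The promoters, 0.24, had 0.71 with unlisted sites at 0.

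The non-CpG log2 ratio of the 6 windows, 0.44, was 0.30 relative to all 3 motifs, 0.58 more than 100 bp from a CCGG and 0.60 with unlisted sites at 0. CCGG sites called higher, 83, were 54 under median-ratio scaling, 46 under the RPM divisors and 36 without the collagen window. Those called lower, 65, were 83, 91 and 35 in the same order.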
